A study of Mus musculus with 6 samples.

Results

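The 46 genes described here are the replication and mitosis genes of the cell cycle, 20 that copy DNA in S phase and 26 that act in G2 phase and mitosis, among 56940 genes counted in each library. They were chosen by name, by the roles of their proteins, and all 46 were found by Ensembl identifier and passed the low-count filter of edgeR. RNA was sequenced from lens capsules of wildtype C57BL/6 mice with their attached lens epithelial cells, in a model of cataract surgery that removes the fiber cell mass through the front of the lens and leaves capsule and epithelium behind. Group 0 h held 3 libraries from capsules taken at the operation, and group 5 days held 3 libraries from capsules left in the eye for 5 days after it. Each library was a pool of 5 capsules. Both groups were wildtype, and the 0 h capsules came from second eyes, in mice that had undergone surgery on the first eye 5 days before, which means that the 0 h mice too had an operated eye. The labels do not say whether a 0 h pool and a 5 day pool share mice. No library between 0 h and 5 days was analysed here.

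A dividing cell first loads a ring-shaped helicase, the MCM complex, on its replication origins, then fires it in S phase with polymerases, a sliding clamp and a supply of deoxynucleotides. Its mitotic genes come on later, in G2, and encode the cyclins and kinases that start mitosis, the kinetochore and spindle that move chromosomes, and the machinery that cuts the cell apart. In the adult lens most epithelial cells rest, and division is concentrated in a ring near the equator. Cells that stay on the capsule after cataract surgery are known to divide and to spread over it, and mRNA of these genes is a usual readout of how many cells are in cycle.

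Few of the cell cycle genes were called different 5 days after surgery. Of the 26 mitotic genes none was called higher or lower at 5 days, and of the 20 replication genes 2 were higher, thymidylate synthase (Tyms) and the polymerase alpha subunit Pola2, and 2 were lower, the primase subunit Prim1 and the polymerase alpha catalytic subunit Pola1. Calls rest on the quasi-likelihood test of edgeR, with p-values adjusted by Benjamini-Hochberg over 14676 genes and a threshold of 0.05. Among all of these genes 47.6% were called, 25.1% higher and 22.5% lower. The median log2 fold change of 5 days over 0 h was -0.01 for mitotic genes and 0.09 for replication genes, against -0.0063 for all tested genes. Without any single library the mitotic median ran from -0.25 to 0.22 and the replication median from -0.02 to 0.21, so the direction of both medians depends on the library left out. The summed level of the mitotic genes was 257.8 ± 46.4 CPM (SD, n = 3; CPM scales each library's counts to a common total) at 0 h and 245 ± 64.3 CPM at 5 days, and that of the replication genes was 265 ± 23.3 CPM and 268 ± 25.3 CPM.

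**Figure D1:**
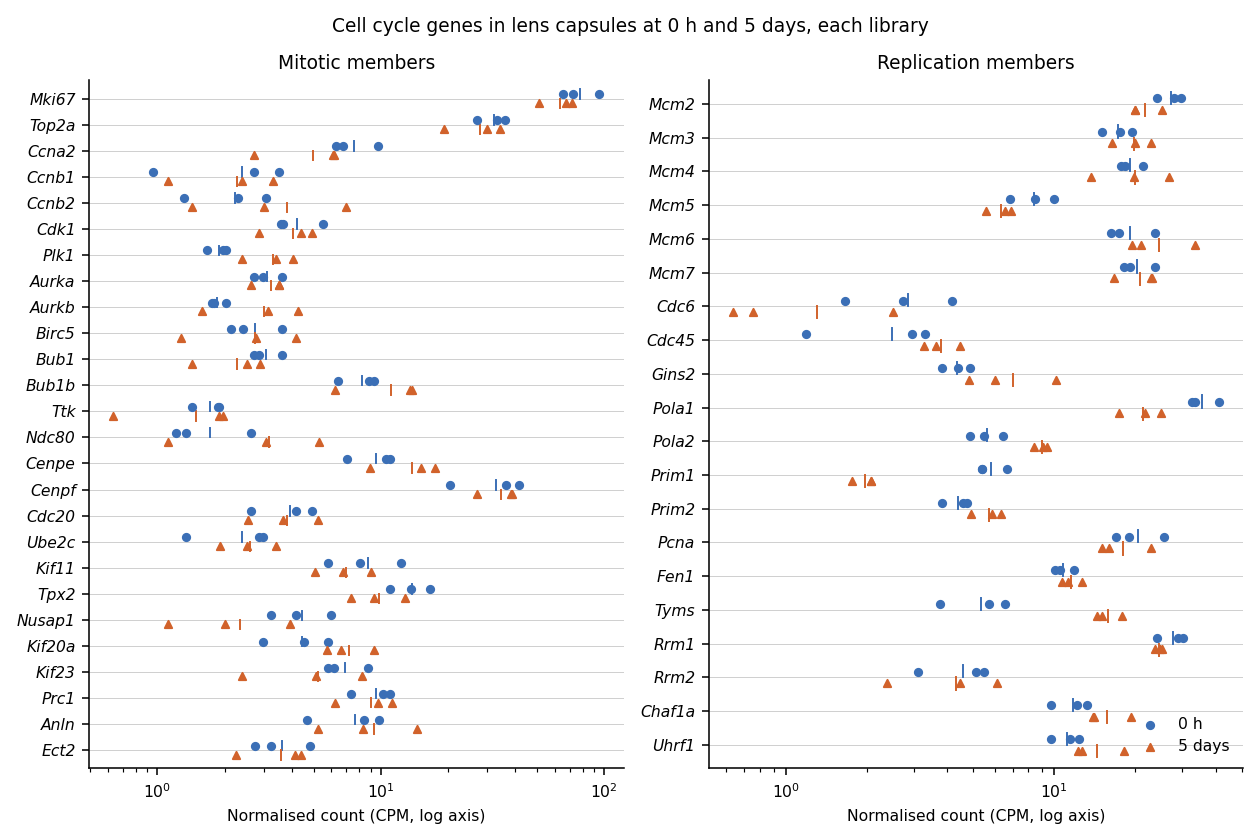
Normalised count in CPM on a log axis of each mitotic (left) and replication (right) gene, with 1 blue circle for each 0 h library, 1 orange triangle for each 5 day library and a short line at each mean of 3. The 2 colours intermix for most genes; Tyms lies fully to the right at 5 days, from 14.45 to 17.98 CPM, and Prim1 fully to the left, from 1.76 to 2.08 CPM.

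The share of genes called varied with their level, and 14 of the 26 mitotic genes averaged under 5 CPM. Of all tested genes with a mean under 5 CPM 34% were called in either direction, against 1 of 18 members of that level. Between 5 and 20 CPM 43% of all genes were called, against 2 of 20 members, and at 20 CPM and over 57.6%, against 1 of 8 members. The standard error (SE) of a log2 fold change had medians in members and in all tested genes of 0.435 and 0.493 under 5 CPM, 0.259 and 0.242 between 5 and 20 CPM, and 0.17 and 0.125 above. For 20 of the 46 members, 8 mitotic and 12 replication genes, the 95% interval of the fold change lay within 2-fold both ways. For 11 mitotic genes the interval reached a 2-fold rise and for 8 a 2-fold fall, so these intervals leave a change of that size possible for those genes. None of the 26 mitotic genes had an unadjusted p under 0.05, and DESeq2 and limma-voom called 0 of them as well.

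**Figure D2:**
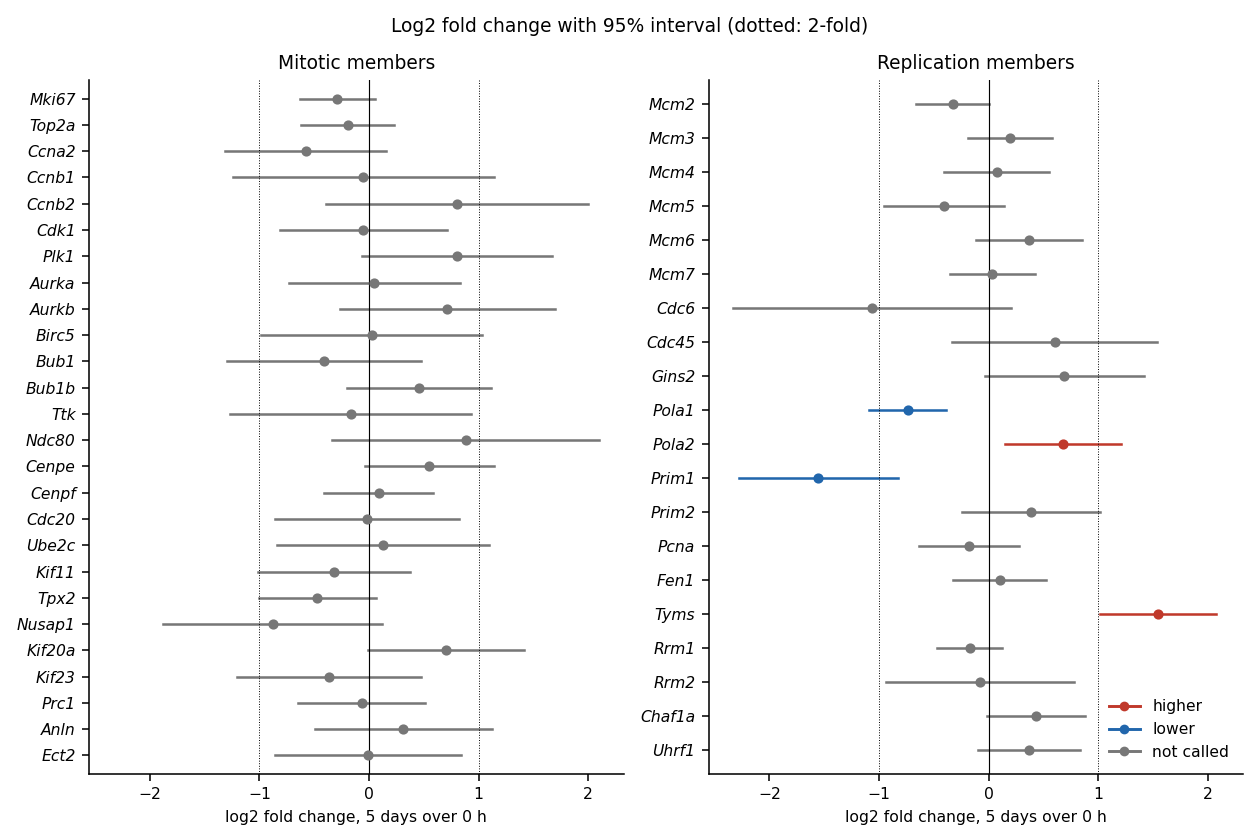
Log2 fold change of 5 days over 0 h for each mitotic (left) and replication (right) gene, with its 95% interval from edgeR, in red where called higher, blue where called lower and grey where not called; dotted lines mark 2-fold. All 26 mitotic intervals cross 0, and the 4 coloured genes are Tyms at 1.55, Pola2 at 0.68, Pola1 at -0.74 and Prim1 at -1.56.

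The promoters of many such genes carry short elements that are known to time them in the cycle. They are shown because some of these elements differ in share between the mitotic and the replication promoters. Mitotic genes are known for the cell cycle genes homology region (CHR, searched as TTTGAA), bound by the MuvB complex, and often for a nearby CCAAT box, bound by NF-Y. Replication genes are known for E2F sites, searched as TTTCCCGC, TTTGGCGC, TTTGCCGC or TTTCGCGC. Both strands were read, and overlapping matches were each counted. RefSeq promoter windows (build GRCm38.p6, 250 bases before to 50 after the start) matched 39 of the 46 members, 22 mitotic and 17 replication genes. The 120 bases before the start are printed 5′ to 3′ on the gene's own strand, with motif letters of either strand in capitals, for 3 mitotic genes and Mcm6, which were not called, and for Tyms, Prim1 and Pola1, which were.
Cdc20 (chr4:118437344-118437463, minus strand): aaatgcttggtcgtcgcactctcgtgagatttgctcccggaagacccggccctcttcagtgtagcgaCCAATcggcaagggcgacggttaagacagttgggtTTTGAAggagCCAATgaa
Cdk1 (chr10:69352913-69353032, minus strand): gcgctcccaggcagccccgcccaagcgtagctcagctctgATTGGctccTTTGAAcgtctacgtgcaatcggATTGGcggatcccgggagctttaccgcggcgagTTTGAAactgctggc
Ube2c (chr2:164769809-164769928, plus strand): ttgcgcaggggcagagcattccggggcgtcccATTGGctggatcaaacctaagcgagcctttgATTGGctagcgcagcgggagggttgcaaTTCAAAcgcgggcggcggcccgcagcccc
Mcm6 (chr1:128359706-128359825, minus strand): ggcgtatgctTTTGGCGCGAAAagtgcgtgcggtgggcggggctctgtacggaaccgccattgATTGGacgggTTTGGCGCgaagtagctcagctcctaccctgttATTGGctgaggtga
Tyms (chr5:30073626-30073745, minus strand): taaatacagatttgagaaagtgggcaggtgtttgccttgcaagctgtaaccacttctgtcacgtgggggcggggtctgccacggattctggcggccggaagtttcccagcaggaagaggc
Prim1 (chr10:128015095-128015214, plus strand): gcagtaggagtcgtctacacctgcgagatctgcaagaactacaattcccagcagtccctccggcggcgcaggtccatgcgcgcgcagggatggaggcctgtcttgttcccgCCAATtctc
Pola1 (chrX:93632156-93632275, minus strand): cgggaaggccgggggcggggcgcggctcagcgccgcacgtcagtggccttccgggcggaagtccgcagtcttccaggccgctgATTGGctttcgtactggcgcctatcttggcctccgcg

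Over the whole window the CHR letters stood in 17 of 22 mitotic promoters (77.27%, exact 95% binomial interval 54.63 to 92.18%) and in 3 of 17 replication promoters (17.65%, 3.8 to 43.43%), against 18.11% of all 27025 promoters. The E2F letters stood in 1 mitotic promoter (4.55%) and 6 replication promoters (35.29%, 14.21 to 61.67%), against 2.32% of all promoters. CCAAT was common to both groups, in 18 mitotic promoters (81.82%) and 13 replication promoters (76.47%), against 37.92% of all. Cdk1 held the CHR letters at 71 and 15 bases before its start, with CCAAT boxes of the other strand 80 and 48 bases before it. The CHR letters of Cdc20 lay 18 bases before the start, between 2 CCAAT boxes. Several CHR matches lay after the start, as in Plk1 and Kif23. In the nearest 100 bases before the start alone the mitotic share was 27.27%, against 5.91% of all promoters. Mcm6 held 3 matches to the E2F letters, 2 of them overlapping. Of the 4 called genes, Tyms and Pola2 held no match to any of these letters in the window, Prim1 held 1 CCAAT box alone, and Pola1 held 1 CCAAT box and 1 E2F match, the latter before the printed stretch. The intervals treat promoters as independent draws, whereas the genes were chosen by name, and no test of these shares was run. A match is a run of letters, not a measured site.

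**Figure D3:**
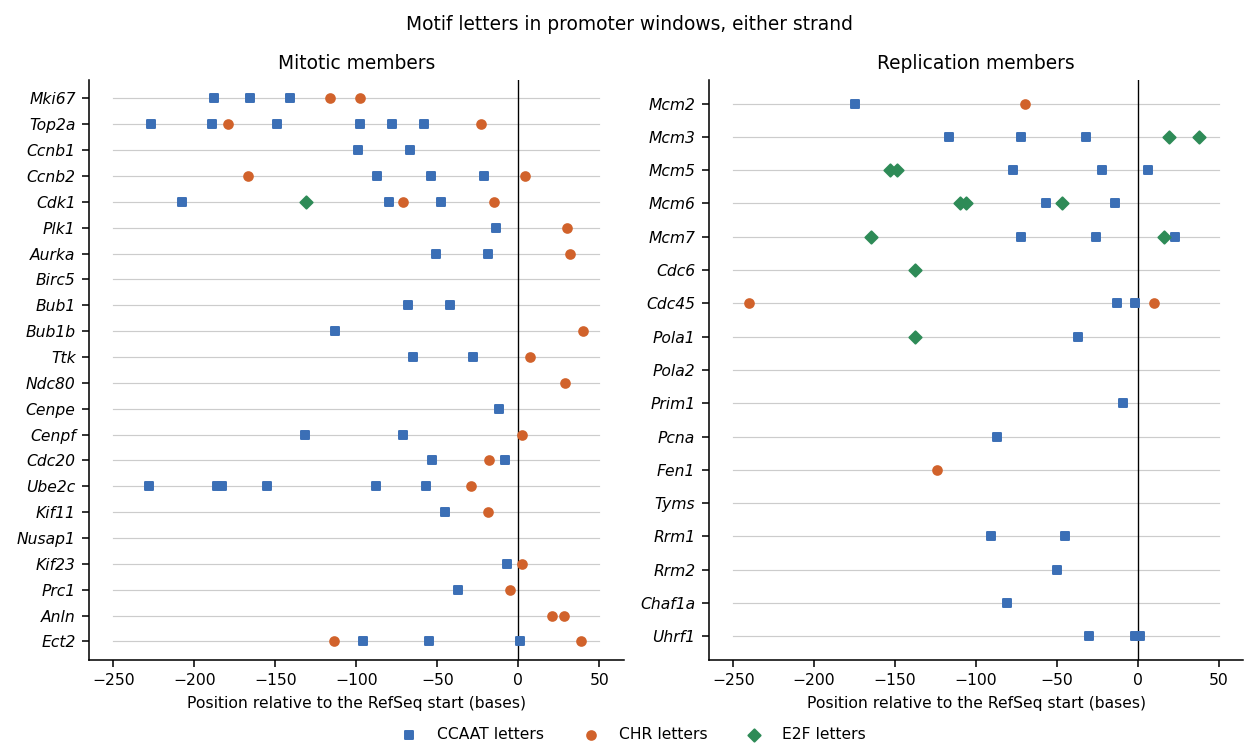
Position, in bases from the RefSeq start at 0, of CCAAT letters (blue squares), CHR letters (orange circles) and E2F letters (green diamonds) on either strand in the windows of 22 mitotic (left) and 17 replication (right) genes, from 250 bases before to 50 after the start. Orange circles occur in 17 mitotic and 3 replication genes and green diamonds in 1 and 6.

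Mki67 (ENSMUSG00000031004), highest per kilobase of exon among the mitotic genes, encodes the Ki-67 antigen that coats mitotic chromosomes and marks cycling cells. Its level was 72.5, 94.9 and 65.2 CPM in the 0 h libraries and 51.1, 67.1 and 71.9 CPM at 5 days. The groups overlapped, with replicate 2 at 0 h highest and replicate 1 at 5 days lowest, and the log2 fold change was -0.29 (SE 0.16, adjusted p = 0.153 by edgeR). Without replicate 3 at 5 days it was called lower at -0.40. The decatenating enzyme Top2a, needed to separate sister chromatids, likewise overlapped, from 26.8 to 36.1 CPM at 0 h and 19.3 to 34.1 CPM at 5 days.

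Cyclins and their kinase came next. Cyclin A2 (Ccna2), which acts in both S phase and G2, stood at 9.70, 6.80 and 6.32 CPM at 0 h and 2.71, 6.15 and 6.13 CPM at 5 days. All 5 day libraries lay below all 0 h libraries, but replicates 2 and 3 lay only just below the lowest, and the log2 fold change of -0.58 (SE 0.34) was not called. Cyclin B2 (Ccnb2), a partner of CDK1, stood at 2.29, 3.07 and 1.31 CPM at 0 h and 1.43, 3.01 and 7.01 CPM at 5 days. Replicate 3 at 5 days alone lay above the 0 h range, and the log2 fold change was 0.80 (SE 0.55). Cyclin B1 (Ccnb1) and the mitotic kinase Cdk1 had log2 fold changes of -0.05 each, with SE 0.54 and 0.35.

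The mitotic kinases Aurka, Aurkb and Plk1 and the survivin gene Birc5, whose protein works with Aurora B in the chromosomal passenger complex, all averaged under 5 CPM. Aurka, the spindle pole kinase, stood at 2.69, 3.62 and 2.98 CPM at 0 h and 3.50, 2.64 and 3.50 CPM at 5 days, with overlap. Plk1, the polo kinase of mitotic entry, stood at 2.02, 1.97 and 1.67 CPM at 0 h and 2.39, 3.39 and 4.05 CPM at 5 days. It was the single mitotic gene with all 5 day libraries above all 0 h libraries, where 29.9% of all tested genes did so, and Ccna2 was the single one with all below, where 28.2% did so. The Plk1 log2 fold change was 0.80 (SE 0.40, adjusted p = 0.117 by edgeR).

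Kinetochore and checkpoint genes, which hold chromosomes to the spindle and delay anaphase until all are attached, had a median log2 fold change of 0.27 over 6 genes. Cenpf, a large kinetochore protein, stood at 36.2, 41.5 and 20.4 CPM at 0 h and 27.1, 38.6 and 38.3 CPM at 5 days. The 5 day values lay inside the 0 h range. The kinetochore subunit Ndc80 had the largest fitted rise of the mitotic genes, 0.88 (SE 0.56), from 1.35, 1.21 and 2.62 CPM to 1.11, 5.27 and 3.07 CPM. The lowest of all 6 libraries was replicate 1 at 5 days. The checkpoint kinase Bub1 had the lowest value of the class, -0.41 (SE 0.41), with 2.69, 3.62 and 2.86 CPM at 0 h and 1.43, 2.89 and 2.52 CPM at 5 days. Without replicate 1 at 5 days the checkpoint kinase Bub1b (0.72) and the kinetochore motor Cenpe (0.77) were called higher.

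The anaphase-promoting complex, which marks cyclin B and securin for destruction, was represented by its activator Cdc20 and its ubiquitin-conjugating enzyme Ube2c. Cdc20 stood at 4.18, 4.94 and 2.62 CPM at 0 h and 2.55, 3.64 and 5.26 CPM at 5 days, a log2 fold change of -0.02 (SE 0.39). Ube2c stood at 1.35, 2.85 and 2.98 CPM and then 1.91, 2.51 and 3.39 CPM, a log2 fold change of 0.13 (SE 0.44). Both genes overlapped between times. Exons of a gene on the opposite strand cover 22.8% of the Ube2c exons, and whether the counting used strand is not stated, so the level of Ube2c is uncertain.

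None of the 3 spindle motor and assembly genes was called, and all had negative fitted values. Tpx2, the activator of Aurora A on microtubules, stood at 16.6, 13.7 and 11.0 CPM at 0 h and 7.32, 9.29 and 12.8 CPM at 5 days, a log2 fold change of -0.47 (SE 0.25). Nusap1, a microtubule bundling protein, had the lowest value of all mitotic genes, -0.88 (SE 0.46), from 3.23, 4.17 and 5.96 CPM to 1.11, 2.01 and 3.94 CPM. In both genes replicate 3 at 5 days was the library that lay within the 0 h range. Without that library Tpx2 (-0.73) and Nusap1 (-1.49) were called lower. The bipolar spindle motor Kif11 had a log2 fold change of -0.32 (SE 0.32).

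Genes of the central spindle and of cytokinesis, which build the cleavage furrow and the midbody, had fitted values of both signs. Prc1, the bundler of antiparallel microtubules, stood at 11.0, 10.2 and 7.39 CPM at 0 h and 6.21, 9.67 and 11.2 CPM at 5 days, with overlap and a log2 fold change of -0.07 (SE 0.27). The motor Kif20a had the lowest adjusted p of the mitotic genes, 0.0951 by edgeR, with 2.96, 5.81 and 4.53 CPM at 0 h, 5.73, 6.66 and 9.31 CPM at 5 days and a log2 fold change of 0.70 (SE 0.32). Exons of a gene on the opposite strand cover 29.3% of the Kif20a exons, which leaves its level uncertain. Its lowest 5 day library lay just under its highest 0 h library. Another motor of the midzone, Kif23, stood at 8.75, 5.81 and 6.1998 CPM and then 2.39, 5.15 and 8.21 CPM, a log2 fold change of -0.36 (SE 0.38). Anln and Ect2, which organise and switch on the contractile ring, had log2 fold changes of 0.31 and -0.01.

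Within a time the mitotic genes varied together. At 5 days replicate 1 was the lowest library for 24 of the 26 genes (92.3%, against 31.1% of all tested genes), and replicate 3 the highest for 21 (80.8%, against 35% of all). The summed mitotic level was 174.3, 260.4 and 300.1 CPM in replicates 1, 2 and 3, and replicate 3 exceeded replicate 1 by 1.72-fold in that sum. The median gene differed by 0.81 between these libraries on the log2(CPM + 1) scale, where the median over all tested genes was 0. At 0 h the sums were 261.4, 302.4 and 209.7 CPM. Replicate 3 was lowest for 17 of 26 genes (65.4%, against 29.2% of all tested genes) and replicate 2 highest for 15 (57.7%, against 35%). The sums of the 2 times overlapped, and the spread within each time was wider than the gap between their means. The replication genes had sums of 256.04, 291.4 and 247.5 CPM at 0 h and 258.9, 249.1 and 297.1 CPM at 5 days. For them replicate 1 at 5 days was lowest for 9 of 20 genes (45%, against 31.1% of all tested genes) and replicate 3 highest for 12 (60%, against 35%). At 0 h replicate 2 was the highest library for 12 of the 20 (60%, against 35% of all tested genes) and replicate 3 the lowest for 10 (50%, against 29.2%). These libraries were also most often highest and lowest for the mitotic genes. Whether the 2 groups of genes differ in this respect was not tested. Replicate 1 at 5 days was also the shallowest library, with 6207387 gene counts against 7509954 to 9774343 in the others, and the part of depth was not tested.

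**Figure D4:**
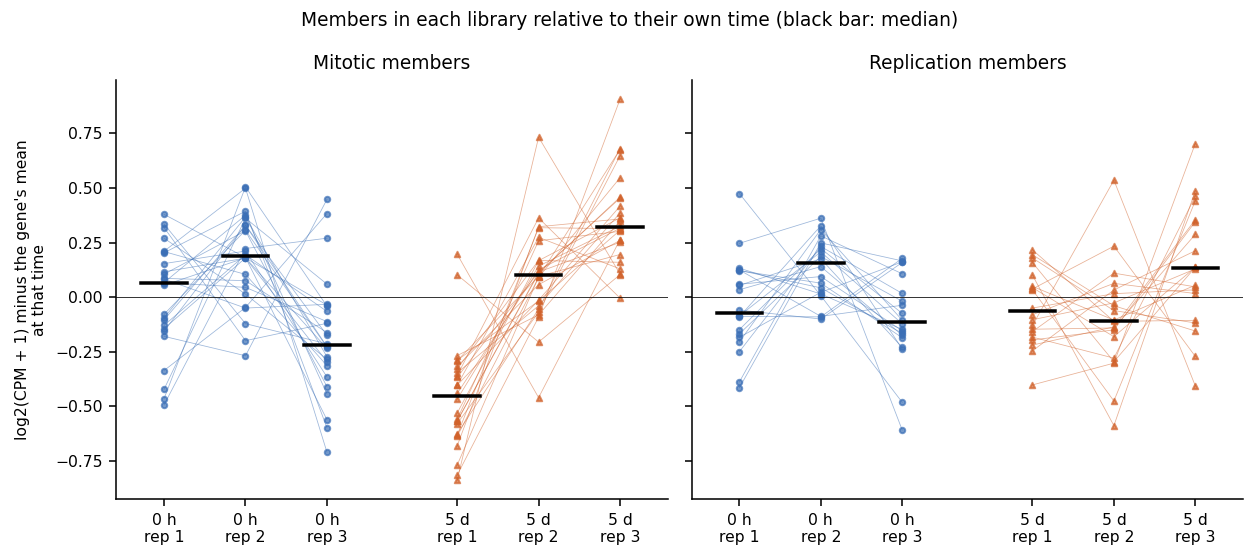
Deviation of each mitotic (left) and replication (right) gene from its own mean at that time, on the log2(CPM + 1) scale, in each library; thin lines join the 3 libraries of a gene, black bars are medians, and replicates have no order. Mitotic genes at 5 days lie low together in replicate 1 and high together in replicate 3, where 24 and 21 of 26 genes have their lowest and highest value.

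Among the replication genes no helicase subunit was called. The 6 MCM subunits, which form 1 ring, had log2 fold changes from -0.41 to 0.37, with overlapping groups for all 6. Mcm2 stood at 29.63, 27.98 and 24.08 CPM at 0 h and 25.30, 19.97 and 20.04 CPM at 5 days, a log2 fold change of -0.33 (SE 0.15) that was called lower without replicate 1 at 5 days, at -0.45. Mcm6 had the largest fitted rise, 0.37 (SE 0.22), from 16.3, 23.7 and 17.5 CPM to 21.01, 19.59 and 33.4 CPM, with replicate 3 at 5 days above the rest. Mcm5 had the largest fitted fall, -0.41 (SE 0.25), from 6.87, 9.98 and 8.47 CPM to 5.57, 6.91 and 6.57 CPM. Per kilobase of exon, the scale on which genes may be compared, Mcm3, Mcm4, Mcm6 and Mcm7 stood between 4.11 and 5.35 CPM per kb at 0 h. Mcm2 stood at 3.915 ± 0.409 and Mcm5 at 2.11 ± 0.39 (SD, n = 3).

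None of the 3 factors that load and activate the helicase was called. Cdc6, which loads MCM rings on origins and is destroyed outside its window, stood at 4.18, 2.74 and 1.67 CPM at 0 h and 0.637, 0.753 and 2.52 CPM at 5 days. Its log2 fold change was -1.06 (SE 0.58) and not called, with replicate 3 at 5 days inside the 0 h range, and without that library it was called lower at -2.02. The GINS subunit Gins2, part of the active helicase, stood at 4.85, 4.39 and 3.82 CPM and then 6.05, 10.2 and 4.82 CPM, a log2 fold change of 0.69 (SE 0.33). It too passed without replicate 3 at 5 days, as higher at 0.90. Exons of a gene on the opposite strand cover 67.3% of the Gins2 exons, and whether the counting used strand is not stated, so its level is uncertain. Cdc45, a further part of that helicase, had a log2 fold change of 0.60 (SE 0.43).

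Polymerase alpha and primase form 1 complex that starts every new DNA strand with a short RNA primer. Of its 4 genes 3 were called, in both directions, where 47.6% of all tested genes were called. The catalytic subunit Pola1 (ENSMUSG00000006678) fell from 33.4, 41.1 and 32.5 CPM to 21.8, 25.1 and 17.4 CPM, a log2 fold change of -0.74 (SE 0.16, adjusted p = 0.00246 by edgeR). The primase catalytic subunit Prim1 (ENSMUSG00000025395) fell from 5.39, 5.38 and 6.68 CPM to 2.07, 1.76 and 2.08 CPM, a log2 fold change of -1.56 (SE 0.33, adjusted p = 0.00208). For both genes every 5 day library lay below every 0 h library, and Prim1 rested on 145 counts at 0 h and 46 at 5 days in all. The regulatory subunit Pola2 (ENSMUSG00000024833) rose from 4.85, 6.47 and 5.48 CPM to 8.43, 9.42 and 9.09 CPM, with no overlap and a log2 fold change of 0.68 (SE 0.24, adjusted p = 0.0374). The Pola2 call was lost with DESeq2 (adjusted p = 0.0525), with no low-count filter (adjusted p = 0.0707) and whichever library was left out except replicate 2 at 0 h (adjusted p 0.0568 to 0.106), while its log2 fold change stayed between 0.58 and 0.79. The calls of Pola1 and Prim1 were kept under all 14 alternative settings. Prim2, the large primase subunit, lay higher in every 5 day library, at 4.90 to 6.35 CPM against 3.82 to 4.72 CPM, but was not called, at 0.39 (SE 0.29).

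The sliding clamp and its flap nuclease did not pass. Pcna, the clamp that holds polymerases on DNA, stood at 18.99, 25.67 and 17.05 CPM at 0 h and 15.1, 16.1 and 23.0 CPM at 5 days, a log2 fold change of -0.18 (SE 0.21). Fen1, which trims Okazaki fragments, stood at 11.9, 10.1 and 10.5 CPM and then 10.7, 11.3 and 12.7 CPM, a log2 fold change of 0.10 (SE 0.19). Opposite-strand exons cover 84.2% of Fen1, whose level is uncertain for that reason. Per kilobase of exon Pcna was the highest of all 46 genes at both times, at 8.57 ± 1.89 CPM per kb at 0 h and 7.53 ± 1.79 at 5 days (SD, n = 3), with Mki67 next at 7.71 ± 1.54 and 6.30 ± 1.08. The mean ± SD ranges of these neighbours overlapped at each time. Both genes were read in the same libraries, so these SDs cannot judge their order, which was not tested.

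Of the 3 genes of deoxynucleotide supply 1 was called, where 47.6% of all tested genes were called. Thymidylate synthase, Tyms (ENSMUSG00000025747), makes the thymidine precursor dTMP and is the target of fluorouracil. It rose from 3.77, 6.58 and 5.72 CPM to 17.98, 15.07 and 14.45 CPM, with no overlap. The log2 fold change was 1.55 (SE 0.24, 95% interval 1.02 to 2.08, adjusted p = 0.00022 by edgeR), the largest rise among the members, and the call was kept under all 14 alternative settings. An annotated pseudogene, Tyms-ps, held 0 counts at 0 h and 2 at 5 days, against 136 and 365 for Tyms. Ribonucleotide reductase, which makes deoxynucleotides from ribonucleotides, was not called: its large subunit Rrm1 stood at 30.2, 29.0 and 24.2 CPM and then 23.7, 24.9 and 25.2 CPM, a log2 fold change of -0.17 (SE 0.14), and its S phase subunit Rrm2 had -0.08 (SE 0.39). For both reductase genes the groups overlapped.

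Neither chromatin copying gene was called. Chaf1a, the large subunit of the histone chaperone CAF-1, stood at 12.1, 13.3 and 9.78 CPM at 0 h and 14.005, 14.065 and 19.27 CPM at 5 days, a log2 fold change of 0.43 (SE 0.20). All 5 day libraries exceeded all 0 h libraries. It was called higher with total count scaling, at 0.57, a scaling that moves the median of all genes by 0.13, and opposite-strand exons cover 52.5% of it. Uhrf1, which brings the maintenance DNA methyltransferase to new DNA, had a log2 fold change of 0.37 (SE 0.21). In all, 4 replication genes had every 5 day library above 0 h (Tyms, Pola2, Prim2 and Chaf1a) and 2 had every one below (Prim1 and Pola1), against 29.9% and 28.2% of all tested genes, so both counts are under those shares.

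Levels of different genes were compared per kilobase of exon. The median replication gene stood 2.29 ± 0.15 times (SD, n = 3) above the median mitotic gene at 0 h and 2.30 ± 0.76 times at 5 days. The 5 day ratio was 3.11, 2.21 and 1.59 in replicates 1, 2 and 3, highest in the library with the lowest mitotic sum.

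Other genes of the same pathways, listed by function, were counted in the same way, and each count stands against 25.1% of all tested genes called higher and 22.5% called lower. Of 52 tested of 62 further mitotic genes 1 was called higher and 3 lower, and their median log2 fold change was -0.02. The one that rose was citron kinase (Cit), a kinase of the cleavage furrow, from 16.0 ± 1.13 to 87.5 ± 3.66 CPM (SD, n = 3), or by 2.45 on the log2 scale (SE 0.11). The largest fall was in the spindle protein Ckap2l, at -1.51 (SE 0.35), and the others were Fbxo5 and securin (Pttg1), at -1.23 and -1.02, of which Fbxo5 inhibits the anaphase-promoting complex and Pttg1 inhibits the cohesin-cutting enzyme separase. Both were named after their values were seen. Leaving out any one of the 0 h libraries 1 and 3 (-1.15 and -1.27) or the 5 day libraries 1 and 3 (-1.19 and -1.12) ended the Fbxo5 call, and leaving out 0 h library 3 ended that of Pttg1 (-0.83). The count of lower genes was 6 without replicate 3 at 5 days. Of 37 tested of 40 further replication genes 1 was called higher and 5 lower, and their median was -0.01. The largest fall was in the fork protection gene Timeless, from 42.0 ± 5.86 to 10.7 ± 2.35 CPM, a log2 fold change of -1.98 (SE 0.18). The most abundant called gene, the clamp loader Rfc1, fell by 0.32 (SE 0.12), and the origin recognition gene Orc4 rose by 0.32 (SE 0.12). The Orc4 call was lost whichever library was left out, at 0.28 to 0.37, with no low-count filter (adjusted p = 0.128) and with DESeq2 (adjusted p = 0.103). The Rfc1 call was lost without replicate 2 at 0 h (-0.22), replicate 2 at 5 days (-0.32) or replicate 3 at 5 days (-0.26), with total count scaling (-0.19), with DESeq2 (-0.31, adjusted p = 0.076) and with TMM leaving out crystallin, mitochondrial and rRNA genes (-0.31, adjusted p = 0.0503). The count of lower genes was 3 without replicate 2 at 0 h. All 5 lower genes serve polymerases, clamp loading, single-strand binding or fork protection (Pold2, Rfc1, Rpa1, Timeless and Tipin). Of the 14 tested licensing and firing genes Orc4 was called higher and none lower, though Orc3 (-0.38, adjusted p = 0.0594 by edgeR) and Gins4 (-0.36, adjusted p = 0.143) had every 5 day library below every 0 h library. Whether these classes differ was not tested.

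Factors that control these promoters were read in the same way. Of 19 tested E2F, pocket protein and MuvB genes 1 was higher and 4 were lower, where 47.6% of all tested genes were called. E2f4, an E2F typical of resting cells, rose by 0.44 (SE 0.12), a call lost without replicate 3 at 0 h at 0.36. The MuvB subunit Lin52 fell by 1.10 (SE 0.25), and the most abundant called gene, Rbbp4, fell by 0.47 (SE 0.10). The mitotic activators Foxm1 and Mybl2 had log2 fold changes of 0.14 (SE 0.27) and -0.30 (SE 0.38), where Foxm1 was at -0.11 without replicate 3 at 0 h, and E2f1 had 0.59 (SE 0.35). Of 17 tested checkpoint and repair genes 1 was higher, the kinase Chek2, at 1.18 (SE 0.41), and 1 was lower, the kinase Atr, at -0.42 (SE 0.13). The Chek2 call was lost with limma-voom (1.07) and whichever library was left out except replicate 3 at 5 days (0.88 to 1.22), while total count scaling (-0.29) or leaving out the first library of either time (-0.32 and -0.34) ended that of Atr. Upstream of these genes, 10 of 15 tested G1 cyclins, their kinases and CDK inhibitors were called, 5 higher and 5 lower, where 47.6% of all tested genes were called. The inhibitor gene Cdkn2a rose from 0.539, 0.658 and 0.238 CPM to 16.2, 13.8 and 19.3 CPM, a log2 fold change of 5.05 (SE 0.35), Cdkn1c fell by 3.22 (SE 0.21) and cyclin D1 (Ccnd1) fell by 0.51 (SE 0.15), a call lost without replicate 2 at 0 h at -0.41. The 5 that fell were 3 without that library.

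Markers of other cells were read in the same libraries, and in pooled tissue a change in the number of cells of a type and in RNA per cell cannot be told apart. Of 18 macrophage and monocyte markers all 18 were higher, with a summed level of 25.6 to 53.1 CPM at 0 h and 669 to 949 CPM at 5 days, and Ccr2 alone had no counts at 0 h. At 5 days the macrophage sum was 949, 669 and 742 CPM in replicates 1, 2 and 3. In the same order the fibroblast sum was 1813, 1836 and 3080 CPM and the endothelial sum 35.2, 29.8 and 53.7 CPM. The lens epithelial sum was 17741, 22535 and 8018 CPM. Whether any of these sums varies with the mitotic sum was not tested. Of 12 lymphocyte markers none passed the filter, and 11 had no counts at 0 h and 9 none at 5 days. Of 7 neutrophil markers the 2 tested were higher, and 6 of 7 had no counts at 0 h. Endothelial markers were higher for 4 and lower for 1 of 7 tested (summed level 12.5 to 23.0 and 29.8 to 53.7 CPM), and fibroblast and mesenchyme markers were higher for 5 and lower for 2 of 8 (592 to 630 and 1813 to 3080 CPM). Lens epithelial markers were higher for 2 and lower for 7 of 11 genes, with sums of 78705 to 95955 CPM and 8018 to 22535 CPM. Most of that sum was the crystallins Cryaa (62314 CPM at 0 h and 11188 CPM at 5 days on average) and Cryab (19625 and 3107 CPM). All 7 lower markers fell by at least 2-fold, among them the transcription factor Foxe3, at -1.37 (SE 0.25). The transcription factor Pax6 rose by 0.28 (SE 0.11), and Six3 and Sox2 were not called, at 0.0061 and -0.15. All 9 lens fiber markers were lower, with mean sums of 71368 and 9146 CPM, and all 10 photoreceptor markers were lower. The part of any of these cells in the level of the cell cycle genes was not tested.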

How the data were processed

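The deposited values are raw counts of reads per Ensembl gene. The submitters' processing notes name HISAT2, HTSeq, edgeR and build GRCm39. Their versions and the annotation, strand and overlap settings of the counting are not stated. Libraries were made from total RNA with a stranded low-input kit, per the labels' protocols. The 5 HTSeq summary entries, 32.26 to 42.55% of reads, were left out, leaving 6207387 to 9774343 gene counts. Symbols, matched for 91.23% of identifiers, and exon lengths came from GENCODE M21 (build GRCm38) and promoters from RefSeq. Lin54 and Lim2, listed, are not analysed here. Genes were filtered with edgeR's default, scaled by TMM and fitted by quasi-likelihood in edgeR 4.0.16 (R 4.3.3), with a procedure checked on simulated data. The simulation altered far fewer genes than were called here, each by 2-fold or more. Smaller changes, and changes in as many genes, were not checked. CPM uses TMM library sizes. Intervals are 95%. Alternatives were other scalings and filters, DESeq2 1.42.0, limma-voom (limma 3.58.1), a replicate block and each library left out. Named genes are, in each role class, the member of highest mean CPM and the largest fitted rise and fall, and in each further list the same among called genes. Members and lists were chosen with earlier results of these data known. Pools are biological replicates per the series' design text. Whether a 0 h pool and a 5 day pool share mice is not stated, so the main fit was unpaired. Figures were drawn with matplotlib 3.10.9.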

Additional observations from a re-analysis of the deposited data

How the results depend on the processing

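Over 14 alternative settings the calls of Tyms, Prim1 and Pola1 were kept, 30 members never changed sign, and 16 members, none of them called, changed sign with log2 fold changes of at most 0.43 in size. With total count scaling the log2 fold changes became 0.0902 for Ccnb1, 0.0869 for Cdk1, 0.12 for Cdc20, 0.0676 for Prc1, 0.12 for Ect2 and 0.0507 for Rrm2. With limma-voom they became 0.0637 for Ccnb1, -0.0321 for Birc5 and 0.0082 for Cdc20. Ect2 became 0.0036 with DESeq2 size factors, 0.0011 with TMM leaving out crystallin, mitochondrial and rRNA genes, and 0.0052 with the DESeq2 test. Without single libraries the log2 fold change ran from -0.17 to 0.58 for Anln, -0.049 to 0.18 for Aurka, -0.43 to 0.34 for Birc5, -0.44 to 0.34 for Ccnb1, -0.34 to 0.19 for Cdc20, -0.23 to 0.18 for Cdk1, -0.17 to 0.30 for Cenpf, -0.20 to 0.26 for Ect2, -0.55 to 0.0026 for Kif11, -0.21 to 0.30 for Mcm4, -0.0526 to 0.18 for Mcm7, -0.41 to 0.0053 for Pcna, -0.27 to 0.12 for Prc1, -0.45 to 0.22 for Rrm2, -0.43 to 0.15 for Ttk and -0.15 to 0.30 for Ube2c, and from -0.11 to 0.47 for Foxm1. Without single libraries the mitotic members called higher ran from 0 to 2 and lower from 0 to 3, and the replication members called higher from 1 to 2. Over the same fits further replication genes called higher ran from 0 to 1 and lower from 3 to 5, and further mitotic genes higher from 1 to 3 and lower from 2 to 6. Regulators ran from 0 to 2 higher and 2 to 4 lower, G1 and CDK inhibitor genes from 3 to 6 lower, and checkpoint genes from 0 to 1 higher and 0 to 2 lower. The replication members called higher were 1 with no filter and 1 with DESeq2. Further replication genes called higher were 2 with total count scaling, which raised their median log2 fold change to 0.12, and 0 with no filter or DESeq2. Further mitotic genes called higher were 2 with DESeq2 size factors, 4 with total count scaling and 2 with that trimmed TMM. Regulators were 4 higher and 2 lower with total count scaling, 2 higher with the 2 CPM filter and 2 lower with DESeq2, and checkpoint genes 0 lower with total count scaling and 0 higher and 2 lower with limma-voom. With total count scaling 62.9% of all calls were upward, against 52.7%. The causes were not tested.

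Deviations of same-numbered libraries from the mean of their time correlated at 0.039, -0.09 and 0.043, and those of differently numbered libraries at -0.095 to 0.065. With 3 libraries at each time, these values cannot show whether pools share mice. With the replicate number as a block the all-gene calls were 3550 higher and 3188 lower, the replication members called higher were 1, further replication genes called higher 0 and checkpoint genes called higher 0, the calls of Pola2 (0.68), Orc4 (0.33), Fbxo5 (-1.23) and Chek2 (1.13) were lost, and Birc5 was at -0.0569.

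Without division by length the ratio of median replication to mitotic level was 2.65 at 0 h and 3.42 at 5 days. In the 100 bases before the start alone, the CHR letters stood in 27.27% of mitotic promoters, against 5.91% of all promoters. There the E2F letters stood in 0% of mitotic and 5.88% of replication promoters, against 0.84% of all promoters. Counting depth limits the scarce members: Ttk had 43 counts at 0 h and 37 at 5 days over 3 libraries.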
